A study of Mus musculus with 33 samples.

Results

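The genes described here encode the microtubule motors of mouse motoneurons: kinesin heavy chains (Kif genes), kinesin light chains (Klc), dynein chains (Dync and Dynl) and the dynactin subunits named Dctn. They were taken by symbol, without pseudogenes, which gave 63 of the 37926 records of the RNA tables (37 Kif, 4 Klc, 16 dynein and 6 dynactin genes) and 61 of the 36194 genes of the iCLIP tables, where Kif7 has 2 entries and Dynlt1a, Dynlt1b and Dynlt1f have no match.

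Kinesins and cytoplasmic dynein turn ATP into steps along microtubules. In an axon, where the plus ends of microtubules point away from the cell body, most kinesins carry cargo outwards, and dynein with its activating complex dynactin carries cargo back. Kinesin-1 (Kif5a, Kif5b and Kif5c with their light chains) moves mitochondria and many vesicles, kinesin-2 (Kif3a, Kif3b, Kif3c, Kif17) also works in cilia, and kinesin-3 (Kif1a, Kif1b and relatives) moves synaptic vesicle precursors. Another group, among them Kif11, Kif15, Kif20a and Kif23, builds the mitotic spindle and separates dividing cells. Changes in KIF5A, KIF1A, DYNC1H1 and DCTN1 are known causes of inherited motoneuron and axon disease.

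Primary motoneurons of CD-1 mice had been grown in microfluidic chambers, in which axons enter a compartment of their own, and total RNA was taken from each side. Control cultures, named GFP in the sample titles, and cultures labelled 7SK knockdown gave 4 libraries per compartment, and hnRNP R knockdown cultures gave 3. hnRNP R is an RNA-binding protein of motoneurons and 7SK is a noncoding RNA of the nucleus that restrains transcription elongation. The labels do not say how either was depleted. The deposited RNA tables hold 1 FPKM value (fragments per kilobase of transcript, scaled to the fragments mapped) per group, so the spread between libraries is not seen and the read depth is unknown. Both knockdowns were set against the same control groups. Crosslinking of hnRNP R to RNA was measured with 11 iCLIP libraries, in which each counted cDNA marks 1 crosslinked RNA molecule. They came from motoneurons and from NSC34 cells, a dividing mouse line made by fusing spinal cord cells with a neuroblastoma. Whole cells gave 2 libraries each, 1 IgG library of NSC34 cells served as background, and 3 pairs of a nuclear and a cytoplasmic library covered motoneurons and, with each of 2 hnRNP R antibodies, NSC34 cells.

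Some labels did not match the RNA values. Chat, Mnx1 and Isl2, defining genes of motoneurons, were listed at 0 in every group, and Isl1 was at 2.42 FPKM in control cell bodies and 1.64 in control axons. In cell bodies 7SK (Rn7sk) fell with the 7SK knockdown from 9104 to 6370 FPKM, for which the authors' deposited table gives a log2 ratio of −0.52 and q = 0.00407. In axons the group labelled 7SK knockdown had 3508 FPKM of 7SK against 2708 in controls, opposite to its label, so it is called by its label below. The 8 microglia markers summed to 108 FPKM in that group and to 5.85 in its control. There the 7 fibroblast markers summed to 239 against 578 FPKM (1 called lower) and the 7 astrocyte and radial glia markers to 488 against 651 (1 called lower). In 7SK knockdown cell bodies the microglia markers summed to 55.5 against 31.6 FPKM and the fibroblast markers to 141 against 89.0 (1 called higher). The astrocyte and radial glia markers summed there to 424 against 405 FPKM, and the 7 motoneuron markers to 0.474 against 3.38. Only 1 of these 7 reached 1 FPKM, and their sum was also below control in each other comparison. The part of these cell types in the values below, Kif1a among them, was not tested. Hnrnpr was at 27.2 FPKM in control and 10.8 in hnRNP R knockdown cell bodies (q = 0.310 in the authors' deposited table) and at 9.93 and 3.98 in axons, where it was not tested. In bulk RNA, fewer cells of a type and less RNA per cell cannot be told apart.

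In control cultures several motors for long-range transport had high levels on both sides of the chamber, while others were low. Kif13b with 1.56 FPKM and Kif16b with 1.34 in cell bodies were among the low ones. In cell bodies 22 of the 63 motor genes reached 20 FPKM, beside 2531 of all 37926 records, and 8 reached 100. These 8 were Dynlrb1 with 368 FPKM, Kif1b with 290, Kif5c with 190, Dynll1 with 170, Dync1h1 with 168, Klc1 with 155, Kif1a with 143 and Dctn6 with 109. In axons 14 reached 20 FPKM and 4 reached 100, namely Kif1b with 180, Kif1a with 163, Dynlrb1 with 154 and Dync1h1 with 114. Dynlrb1 and Dynll1 are small light chains of dynein, and Dync1h1 is its motor subunit. No background over all records was taken at 100 FPKM or in axons. Without values per library, no spread sets apart neighbours in this order.

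The motors' ratios of axon to cell body level split into mitotic kinesins, which lay above the median of all records, and the rest, most of which lay below it. Over the 51 motor genes at 1 FPKM or more on either side, the median of the log2 ratios, taken after adding 0.1 FPKM, was −0.57, and over all 13576 such records it was −0.58. The axon and cell body tables were scaled separately, so only the order of the ratios can be read and none was tested. Without the mitotic kinesins the motors' median was −0.86, with 16 of 41 genes above the median of all records. At 20 FPKM or more in cell bodies it was −1.05 over 22 motors and −0.84 over all 2531 records. The mitotic kinesins were all at 7.10 FPKM or less on both sides. Of the 41 other motors 9 were higher in axons and 32 lower. The 9 were Kif1a, Kif5b and genes at 10.4 FPKM or less on both sides. No background at the level of the mitotic kinesins was taken, so the part of level in the split was not tested. With control values from the tables of the other knockdown, the motors' median was −0.41.

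Of the 22 motor genes at 20 FPKM or more in cell bodies, Kif1a and Kif5b had the 2 highest ratios. They were the 2 with a higher value in axons, beside 11.1% of all records at that level. Because the tables were scaled separately, the sign of a ratio as small as that of Kif5b is not secure. Kif1a had 163 FPKM in axons and 143 in cell bodies (log2 ratio 0.19), and Kif5b, the heavy chain made in all tissues, had 24.4 and 24.3 (0.01). The neuronal heavy chains had lower ratios: Kif5c had 90.5 and 190 FPKM (−1.07), and Kif5a had 18.1 and 51.5 (−1.51). All 4 kinesin-2 genes lay below the median of all records, between −1.08 for Kif3b and −1.68 for Kif3a, and so did Klc1 (−0.92) and Klc2 (−1.15). Kif1b, with 180 and 290 FPKM, had −0.68.

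All 5 dynein-1 chains and all 6 Dctn subunits had negative ratios, as did 9572 of the 13576 records. Against the median of all records, 1 of the 5 dynein-1 chains (Dync1h1) and 3 of the 6 Dctn genes (Dctn2, Dctn3 and Dctn4) lay above it. Dync1h1 had 114 and 168 FPKM (−0.57), and the intermediate chains that bind dynactin ranged lower, with −1.24 for Dync1i2 and −1.71 for Dync1i1. Among light chains Dynll2 was lowest, with 19.0 and 63.2 FPKM (−1.73). Dctn1, the p150Glued subunit that binds microtubules, had 30.7 and 51.5 FPKM (−0.75), and Dctn6 had 37.7 and 109 (−1.53).

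The 10 of 11 listed mitotic kinesins that reached 1 FPKM on either side all had higher values in axons, with a median ratio of 0.83. Kif18a and Kif20b reached that level in axons only, so the value described helped to select them. Kif14, below it on both sides, had 0.902 FPKM in axons and 0.419 in cell bodies. Kif22 had 5.83 FPKM in axons and 1.14 in cell bodies (2.25), Kif18a 3.24 and 0.918 (1.71), and Kif23 6.32 and 2.21 (1.47). The sum over all 11 was 41.7 against 20.1 FPKM. All 8 markers of cycling cells were also higher there, with sums of 144 and 74.8 FPKM, among them Cdk1 with 74.2 and 33.4. In control axons the 7 fibroblast markers summed to 560 FPKM against 96.6 in control cell bodies. The 7 astrocyte and radial glia markers summed to 634 against 440, though 5 of these 7 were lower in axons. Sums were lower in axons for microglia markers (5.74 against 34.4), oligodendrocyte markers (15.3 against 74.6) and ciliated cell markers (8.51 against 13.3). The part of dividing cells and of these cell types in the axon and cell body levels was not tested.

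**Figure D1:**
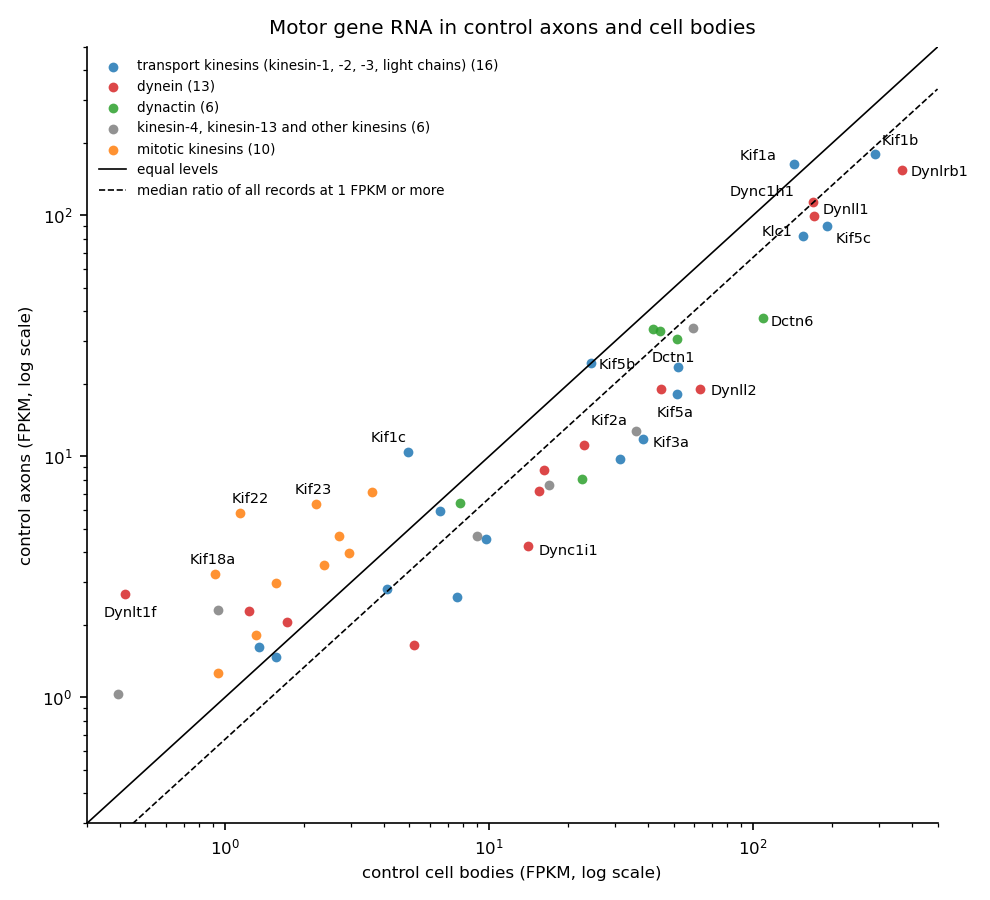
Control FPKM of the 51 motor genes at 1 FPKM or more, in cell bodies (horizontal, log scale) and axons (vertical, log scale), 1 point per gene and 1 deposited value per group. Most transport motors and all dynein-1 and dynactin genes lie below the line of equal levels, with 16 of the 41 genes outside the mitotic list above the dashed median ratio of all records. Kif1a and Kif5b lie on or above the line of equal levels, and the mitotic kinesins lie above it. The axes were scaled separately, so only the order of the ratios can be read.

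A single motor gene passed the authors' threshold in the 4 knockdown comparisons. Kif1a, on chromosome 1 from 93015456 to 93101865 (GRCm38), fell from 132 to 93.9 FPKM in 7SK knockdown cell bodies (log2 ratio −0.49, p = 5e-05, q = 0.00407 in the authors' deposited table). It was 1 of 20 motor genes tested there, where 2.51% of all 1954 tested records passed and 1.07% were lower. None of the 15 tested in hnRNP R knockdown axons, the 11 in axons labelled 7SK knockdown or the 24 in hnRNP R knockdown cell bodies passed, beside 0.114%, 3.07% and 0.975% of all records. At an unadjusted p under 0.05 these 3 counts were 0, 2 and 3, beside 9.26%, 18.1% and 12.3% of all records, and in 7SK knockdown cell bodies 3, beside 15.3%. In all, 24 of the 63 genes were tested at least once and 11 in all 4 comparisons. The other 39 include 12 with 5 FPKM or more in a control group and 27 whose highest control value was 4.81 FPKM, of which 2 were at 0 in every group.

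In axons labelled 7SK knockdown Kif1a had 343 FPKM against 167 in controls, which the authors' deposited table gives with a log2 ratio of 1.04, p = 0.00735 and q = 0.115. With hnRNP R knockdown its values were 162 against 163 FPKM in axons and 145 against 143 in cell bodies. The difference between the compartments in the 7SK comparisons was not tested.

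Kinesin-1 heavy chains and their light chains had no call. Kif5c had 207 FPKM in axons labelled 7SK knockdown against 92.6 in controls (q = 0.274 in the authors' deposited table), and 116 against 90.5 after hnRNP R knockdown. In cell bodies it was below control in both knockdowns, with 141 against 190 FPKM for hnRNP R and 128 against 175 for 7SK. Kif5a, tested only in cell bodies, had 38.1 FPKM against 47.4 with 7SK knockdown (log2 ratio −0.32, p = 0.0136, q = 0.167 in the authors' deposited table) and 55.1 against 51.5 with hnRNP R knockdown. Kif5b had 16.5 FPKM against 24.4 in hnRNP R knockdown axons. Klc1 lay between 60.4 and 93.2 FPKM in the knockdown axons, around controls of 82.0 and 84.3, and Klc2 had 32.2 against 48.1 FPKM in 7SK knockdown cell bodies (q = 0.421 in the authors' deposited table).

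The other kinesins showed single values past an unadjusted p of 0.05. Kif3c, a kinesin-2 chain of neurons, had 22.0 FPKM against 28.8 in 7SK knockdown cell bodies (p = 0.0164, q = 0.187 in the authors' deposited table), while its partner Kif3a had 40.1 against 35.1. Kif21a, a kinesin-4 that slows microtubule growth, had 24.3 against 16.8 FPKM in hnRNP R knockdown cell bodies (log2 ratio 0.53 with q = 0.0525 in the authors' deposited table), just outside the threshold of 0.05. Its relative Kif21b had 87.2 against 59.4 FPKM there (q = 0.411 in the authors' deposited table). Kif1b, with the highest motor level in axons, had 123 against 180 FPKM in hnRNP R knockdown axons and 183 against 184 in those labelled 7SK knockdown. Kif2a, a kinesin-13 that takes apart microtubule ends, had 28.0 against 36.2 FPKM in hnRNP R and 46.8 against 33.3 in 7SK knockdown cell bodies.

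Dynein chains had no call either. Dync1h1 had 63.9 FPKM against 114 in hnRNP R knockdown axons (log2 ratio −0.83 with q = 0.711 in the authors' deposited table) and 125 against 117 in axons labelled 7SK knockdown. Dync1i2 had 42.8 against 45.0 FPKM in hnRNP R knockdown cell bodies, and Dync1li1, a light intermediate chain, had 27.9 against 22.8. Dynll2, a light chain that dynein shares with other proteins, had 54.8 FPKM against 19.6 in axons labelled 7SK knockdown (log2 ratio 1.49, p = 0.00235, q = 0.0659 in the authors' deposited table), 23.4 against 19.0 in hnRNP R knockdown axons, and 58.3 against 63.2 in hnRNP R knockdown cell bodies. Dynlrb1 had 227 against 154 FPKM in hnRNP R knockdown axons, Dynll1 stayed between 98.7 and 117 FPKM in both knockdown axon groups, and Dynlt3 had 22.0 against 16.1 FPKM in hnRNP R knockdown cell bodies. The Dynlt1 genes are uncertain, because Dynlt1a, Dynlt1b, Dynlt1c and Dynlt1f were all under 3 FPKM in controls while the near-identical pseudogene Dynlt1-ps1, left out by the rule, had 142 FPKM in control cell bodies.

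Of the 5 dynactin subunits tested in hnRNP R knockdown cell bodies, 4 had a negative log2 ratio and none passed, beside 12 of 24 motors and 1308 of all 2768 tested records with a negative ratio. Dctn1 had 31.9 FPKM against 51.5 (log2 ratio −0.69, p = 0.0087, q = 0.235 in the authors' deposited table) and Dctn6, a subunit of the pointed end, had 71.5 against 109 (p = 0.0286, q = 0.321 in the authors' deposited table). Dctn2 had 36.1 against 44.6 FPKM, Dctn3 32.3 against 41.7, and Dctn5 27.1 against 22.5. In hnRNP R knockdown axons Dctn6 had the opposite sign, with 61.5 against 37.7 FPKM, while Dctn1 (30.2 against 30.7), Dctn2 (31.0 against 33.0) and Dctn3 (24.8 against 33.6) were again below control. In axons labelled 7SK knockdown Dctn6 had 26.8 against 38.7 FPKM and Dctn1 55.9 against 31.5.

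**Figure D2:**
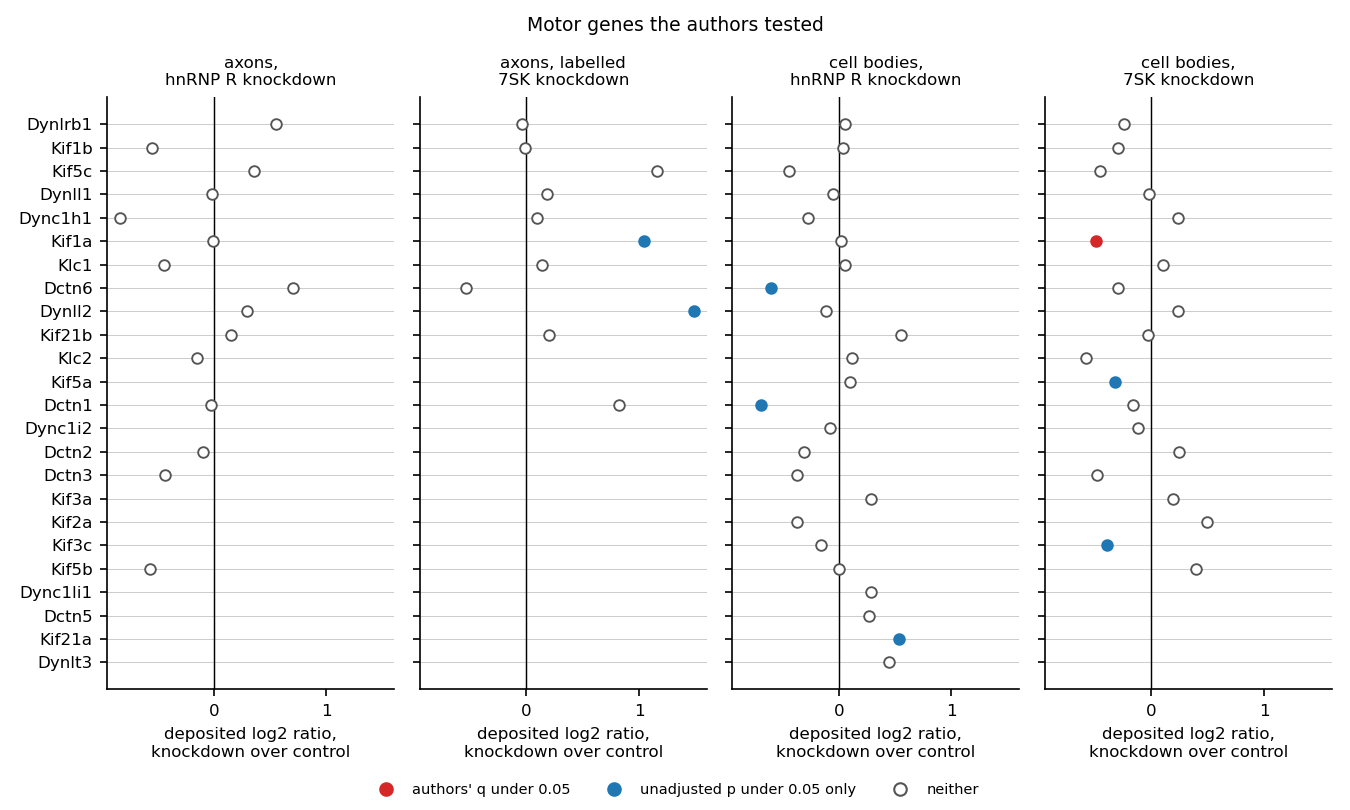
The authors' deposited log2 ratios (knockdown over control) of the 24 motor genes tested in at least 1 comparison, in 1 panel per comparison and ordered by control FPKM; an absent point was not tested. The filled red point, Kif1a in 7SK knockdown cell bodies, is the one gene with q under 0.05, and 7 blue points have an unadjusted p under 0.05 only.

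As a group, the motors had medians close to those of all records. After adding 0.1 FPKM, their median log2 ratio was −0.01, −0.01, 0.04 and 0.10 in hnRNP R axons, axons labelled 7SK knockdown, hnRNP R cell bodies and 7SK cell bodies. All records at 1 FPKM or more had 0.03, 0.07, 0.02 and 0.08. Among tested records the motors' medians were −0.02, 0.19, 0.01 and −0.14 in the same order, beside 0.14, 0.23, 0.02 and 0.06 over all. The gap was widest in hnRNP R axons and 7SK cell bodies. There 10 of 15 and 13 of 20 tested motors were lower, beside 724 of 1749 and 839 of 1954 records. These gaps were not tested. In hnRNP R knockdown axons all 5 dynein-1 chains were below control, beside 6394 of all 13119 records at 1 FPKM or more. Their summed level was 97.8 against 155 FPKM. Dync1h1, the only one tested there, made up 63.9 and 114 FPKM of these sums. In axons labelled 7SK knockdown 8 of 10 mitotic kinesins were below control, beside 6460 of 13675 records. In 7SK knockdown cell bodies 6 of 9 were above control, beside 7516 of 13479. All 8 cycling markers were above control in those cell bodies, with 107 against 68.9 FPKM in sum, and 5 of 8 were below it in those axons, with 146 against 148. Their part in the mitotic kinesin values was not tested.

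The 12 untested genes at 5 FPKM or more give values only. Kif1c had 6.54 FPKM against 10.4 in hnRNP R knockdown axons and 2.41 against 4.56 in 7SK knockdown cell bodies. Dync1li2 had 12.2 against 7.41 FPKM in axons labelled 7SK knockdown and 8.87 against 15.5 in hnRNP R knockdown cell bodies, and Dync1i1 had 11.2 against 14.0 in the latter. Kif22 had 11.0 against 5.83 FPKM in hnRNP R knockdown axons, Kif23 had 3.49 against 6.32, and Kif2c had 8.39 against 3.60 in hnRNP R knockdown cell bodies. Kif26b had 8.80 against 4.81 FPKM in axons labelled 7SK knockdown, and Kif3b 6.11 against 4.68. Kif13a lay between 4.16 and 7.69 FPKM in every group, Dctn4 had 11.3 against 7.78 in hnRNP R knockdown cell bodies, and Dync2li1 of the ciliary dynein-2 had 2.90 against 5.20. Kif17 shares its record with Sh2d5 and had 10.5 against 7.55 FPKM there.

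Of 48 further genes of the same pathways, not all of them tested, 1 was called. Ppfia3, a liprin-alpha protein of a family that binds Kif1a, fell from 29.1 to 7.37 FPKM in hnRNP R knockdown axons (log2 ratio −1.98 with q = 0.0437 in the authors' deposited table). It was 1 of 10 kinesin adaptors tested there, where 2 of all 1749 tested records (0.114%) passed. It had 17.6 against 27.8 FPKM in hnRNP R knockdown cell bodies (q = 0.268 in the authors' deposited table). The most abundant adaptor, Clstn1, had 238 against 248 FPKM there. None of the 3 or 4 dynactin partners tested in each comparison passed, beside between 0.114% and 3.07% of all records. Actr1a, the filament of dynactin, had 71.9 against 74.8 FPKM in hnRNP R knockdown cell bodies. Among dynein regulators Pafah1b1, the LIS1 protein, had 24.5 against 35.0 FPKM in 7SK knockdown cell bodies (p = 0.0168, q = 0.190 in the authors' deposited table), and among minus-end kinesins Kifc2 had 22.1 against 17.3 in hnRNP R knockdown cell bodies (q = 0.492 in the authors' deposited table).

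Crosslinked cDNAs fell on 51 of the 61 motor genes in motoneurons, and the share on all motors together lay within the interval of the IgG library. The whole-cell libraries held 359005 and 319381 cDNAs for motoneurons, 456721 and 99762 for NSC34 cells and 36280 for IgG. Motor genes took 0.417% (95% exact interval 0.396 to 0.439) and 0.439% (0.416 to 0.463) in motoneurons, 0.445% (0.426 to 0.465) and 0.410% (0.371 to 0.452) in NSC34 cells, and 0.452% (0.386 to 0.527) with IgG. The IgG interval holds all 4 hnRNP R shares. In NSC34 cells, the source of the IgG library, no surplus on motor genes as a group was detectable. For motoneurons a surplus was not tested, because no IgG library of these cells was analysed here. Intervals cover counting error only.

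The cDNAs were spread unevenly over the genes. In the 2 motoneuron libraries together 3 genes held 36.9% of the 2900 motor cDNAs and 15 held 83.0%, while 10 of the 61 had none. Kif26b, an atypical kinesin, had 240 and 183 cDNAs, Kif1b had 189 and 169, and Kif21a had 144 and 146. Kif5c followed with 130 and 120, Dync1i2 with 116 and 118, Kif1a with 115 and 60, Kif2a with 57 and 62, and Dync2h1, the dynein-2 motor of cilia, with 57 and 36. The counts of the other 7 were 32 and 51 for Kif3a, 39 and 32 for both Kif5a and Kif5b, 37 and 34 for Kif16b, 29 and 31 for Klc1, 25 and 31 for Kif3c, and 31 and 22 for Dync1h1. The IgG library, the smallest of these 5, had no cDNA on Kif26b. That allows up to 82.7 CPM (cDNAs of a gene scaled to 1000000 cDNAs in the library). In NSC34 cells, the source of the IgG library, the hnRNP R antibody gave 43.8 and 40.1 CPM on Kif26b, below that limit. Motoneurons gave 669 and 573 CPM, but no IgG library of these cells was analysed here. The IgG library had 11 cDNAs on Kif1b and 22 on Kif5c.

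Most of these crosslinks lay in introns, as in genes at large. Introns held 86.5% and 81.3% of motor cDNAs in motoneurons, 80.6% and 85.3% in NSC34 cells and 66.5% (58.7 to 73.6) with IgG. Over all genes the intron shares of cDNAs in coding genes were 91.0% and 89.3%, 82.4% and 81.1%, and 78.7%. Kif26b was intronic in 99.1% (97.6 to 99.7) of 423 cDNAs, Kif21a in 96.9% and Kif1a in 93.7% (89.0 to 96.8) of 175.

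Several of the 15 had a larger part in the 3′UTR. Kif5a, a heavy chain of neurons, had 45.1% (33.2 to 57.3) of its 71 motoneuron cDNAs there, 19 and 13 in the libraries, against 5.68% and 7.06% over all genes. The next were Kif3c with 30.4%, Kif2a with 24.4%, Kif3a with 20.5%, Kif5c with 20.0% (15.2 to 25.5) and Kif5b with 19.7%. Kif1b, the axonally most abundant motor, had 16.5% in the 3′UTR, with 15 cDNAs in 1 library and 44 in the other. Kif16b had none. Kif1a had none either. Lengths could be derived only for parts with a cDNA in some library, so the length of its 3′UTR is unknown here. Per kilobase of 3′UTR the 2 libraries gave 13.8 cDNAs for Kif5c, 11.9 for Kif1b and 11.6 for Kif5a, and per kilobase of intron 1.31, 2.08 and 1.21. Over the 36 motor genes with a cDNA in both parts in any library, the density in 3′UTRs was 6.07 times that in introns for motoneurons, 6.51 times for NSC34 cells and 8.91 times for IgG. Over 7530 genes so chosen these ratios were 3.17, 5.64 and 4.51, so the IgG library had the higher density in 3′UTRs as well. Genes without a cDNA in a part were left out, which can raise the density of that part. These densities are descriptions without a test.

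**Figure D3:**
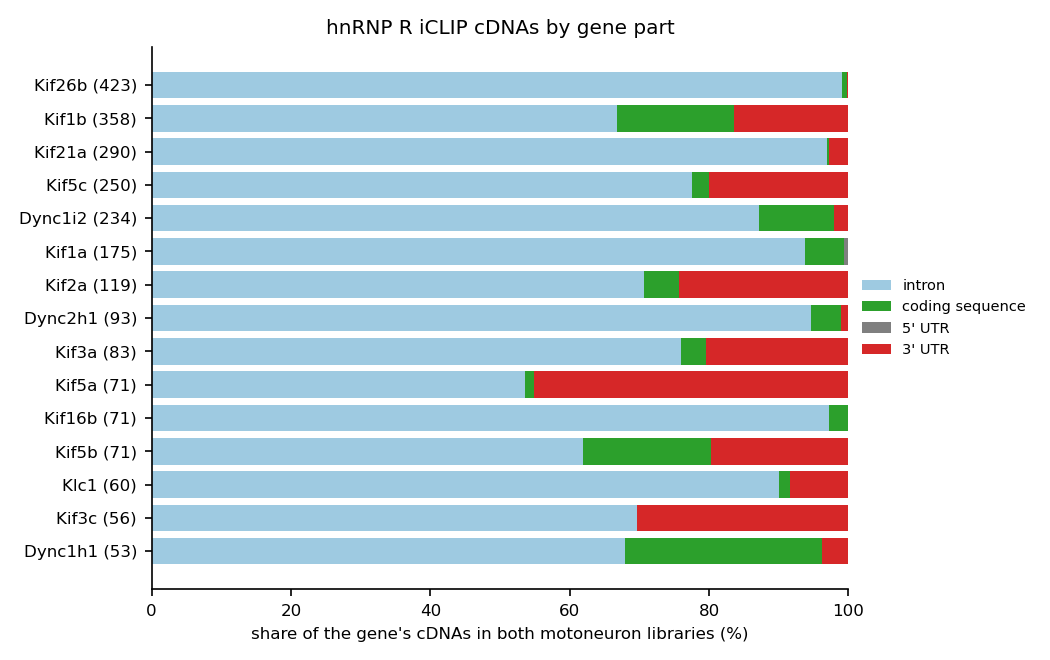
Share (%) of each gene's cDNAs in introns, coding sequence and UTRs over both motoneuron iCLIP libraries, for the 15 motor genes with most cDNAs (their number in brackets). Kif26b, Kif21a, Kif16b and Dync2h1 are nearly all intron, whereas Kif5a has 45.1% in the 3′UTR.

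The number of cDNAs on a motor gene varied more closely with its intron length than with its level. Over 42 motor genes at 1 FPKM or more in control cell bodies and with a cDNA, Spearman's rho between intron length and cDNAs was 0.67, between FPKM and cDNAs 0.33, and between FPKM and cDNAs per kilobase of intron 0.70. The last value divides by intron length, whose own rho with FPKM was not taken. It is therefore not read as a separate link with level. The points share both libraries, genes are not independent replicates, and no p is given. The extremes show the spread. Dynlrb1, at 368 FPKM with 12.7 kb of intron, had 16 cDNAs, and Dynll1, at 170 FPKM with 0.964 kb, had 3. Kif26b, at 9.03 FPKM with 395 kb, had 423, and Kif16b, at 1.34 FPKM with 278 kb, had 71.

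**Figure D4:**
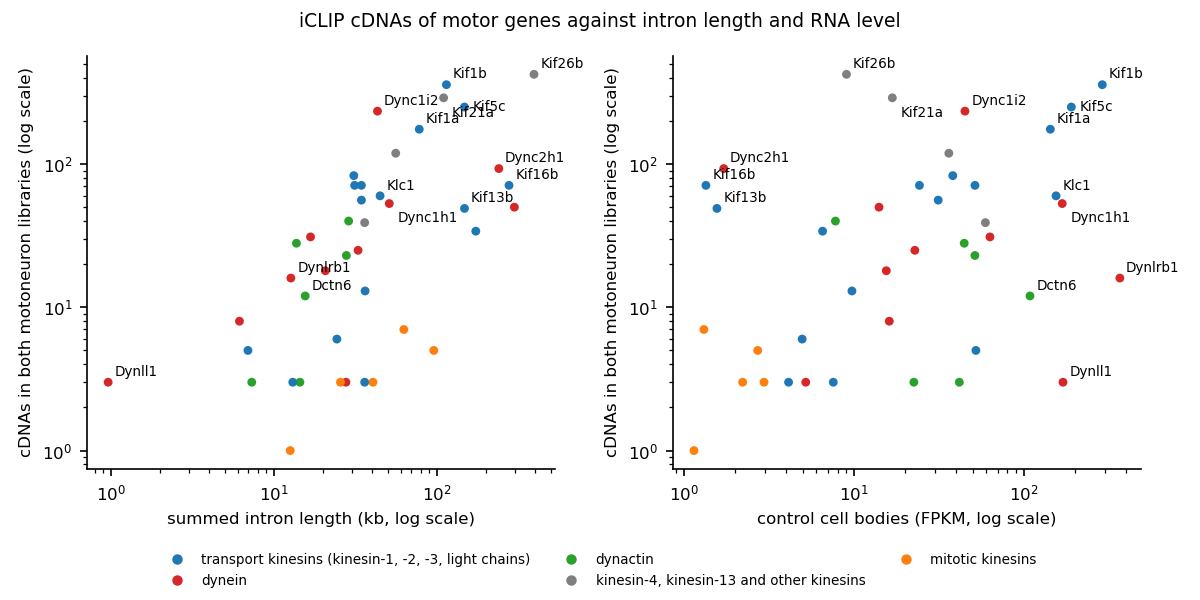
Motoneuron cDNAs of 42 motor genes (both libraries summed, log scale) against summed intron length (left, kb, log scale) and control cell body FPKM (right, log scale), 1 point per gene. Counts climb with intron length (rho 0.67) more closely than with FPKM (rho 0.33); Dynlrb1 and Dynll1 are abundant RNAs with few cDNAs.

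Between motoneurons and NSC34 cells, mitotic kinesins had fewer crosslinks in motoneurons, and Kif26b, Kif21a, Kif21b, Kif1a and Dync1i1 had more. With edgeR's quasi-likelihood test and TMM scaling, 46 motor genes were fitted and 25 passed an adjusted p of 0.05, 15 higher and 10 lower in motoneurons. Over all genes 37.3% passed, 23.4% higher and 13.9% lower. The scaling moved many calls: the median log2 ratio of all genes was 0.08 with TMM and −0.85 with plain totals, and the motors' medians were 0.18 and −0.74. With totals 27 motors passed, 8 higher and 19 lower, beside 50.9% of all genes (14.1% higher, 36.8% lower). The same 8 higher and 10 lower calls stood under both, 7 were called only with TMM and 9 only with totals. The labels do not say whether replicates came from separate cultures, so p-values measure the spread between these libraries, and no NSC34 RNA levels were analysed here to set against the counts.

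The 8 genes higher in motoneurons under both scalings were Kif26b, Kif21a, Kif21b, Kif1a, Kif16b, Dync1i1, Dync1i2 and Dync2h1. Kif26b had 669 and 573 CPM in motoneurons against 43.8 and 40.1 in NSC34 cells (log2 ratio 4.78 ± 0.33, SE, edgeR adjusted p = 1.74e-21). Kif21a had 401 and 457 against 48.2 and 20.0 (4.28 ± 0.33, edgeR adjusted p = 1.13e-18), and Kif1a had 320 and 188 against 85.4 and 100 (2.46 ± 0.32, edgeR adjusted p = 9.45e-10). For these 3 genes the groups did not overlap, but the share of all genes without overlap is not given here. Kif21b had 11 and 28 cDNAs in motoneurons and none in NSC34 cells, which is at least 10.7-fold higher by plain totals and at least 20.6-fold higher by TMM, with a limit of 3 cDNAs over both NSC34 libraries. Dync1i1, the intermediate chain of neurons, had 14 and 36 cDNAs against 1 and 0, a ratio of 41.0 by plain totals (counting interval 7.03 to 1652) and 79.2 by TMM (13.6 to 3190).

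Its relative Dync1i2, made in many tissues, had 116 and 118 cDNAs in motoneurons against 78 and 15 in the NSC34 libraries (log2 ratio 2.01 ± 0.27, edgeR adjusted p = 3.94e-09; 1.07 with totals). Kif16b, an endosomal kinesin-3, had 2.02 ± 0.41, and Dync2h1 had 1.99 ± 0.36.

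The 7 genes called higher with TMM only were Kif1b (log2 ratio 1.13 with TMM, 0.19 with totals), Kif3a (1.68, 0.75), Kif3c (1.27, 0.34), Kif5a (1.36, 0.42), Dync1h1 (1.17, 0.23), Dynll2 (1.95, 1.02) and Dctn1 (1.76, 0.84). Kif1b had 526 and 529 CPM in motoneurons and 451 and 481 in NSC34 cells, and Kif5a had 109 and 100 against 65.7 and 110, so its groups overlapped. Kif5c changed sign with the scaling, from 0.32 (edgeR adjusted p = 0.312) with TMM to −0.61 (edgeR adjusted p = 0.0282) with totals. The other 8 called only with totals, all lower in motoneurons, were Kif13b, Kif14, Kif18a, Kif1c, Kif24, Kif2c, Dctn2 and Dync1li1, with log2 ratios between −1.05 and −4.96.

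The genes lower in motoneurons were mostly mitotic kinesins. Of the 11 on that list 8 were called lower, under both scalings, and none higher, and the list as a whole took 69.6 and 81.4 CPM in motoneurons against 1047 and 872 in NSC34 cells. Its IgG value, 1103 CPM, was above both values of the hnRNP R antibody in the same cells. Kif15, a spindle kinesin, had 5 and 2 cDNAs against 124 and 21 (log2 ratio −3.61 ± 0.47, edgeR adjusted p = 1.01e-09). Kif4, a chromosome-bound kinesin-4, had 0 and 5 against 98 and 17 (−3.75 ± 0.56, edgeR adjusted p = 4.80e-08). Kif11, the motor that pushes spindle poles apart, had 1 and 2 against 67 and 16, which is 33.7 times more in NSC34 cells by plain totals (counting interval 11.1 to 167) and 17.5 times more by TMM (5.77 to 86.4).

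Kif18b and Kif20a had no cDNA in motoneurons and were at least 10.2-fold and at least 4.47-fold lower there by plain totals, and at least 5.26-fold and at least 2.31-fold lower by TMM, with a limit of 3 cDNAs over both libraries. Kif22 (1 cDNA against 27), Kif23 (3 against 34) and Kif20b (9 against 53) complete the 8. The other 2 lower calls were Kif26a, with 3 cDNAs against 33, and the dynactin subunit Dctn5, with 3 against 30.

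Fewer of these calls stood under other fits. DESeq2 called 11 motors, all among the 25, 9 higher and 2 lower, beside 21.4% of all genes (16% higher, 5.41% lower). Of the 8 mitotic kinesins it called Kif11 and Kif15, gave Kif4, Kif18b, Kif20b, Kif22 and Kif23 adjusted p-values between 0.0629 and 0.328, and gave Kif20a none. Kif21b (DESeq2 adjusted p = 0.359), Dctn1, Dctn5, Dync1h1, Dynll2, Kif26a, Kif3c and Kif5a did not pass either. Without NSC34 replicate 1 edgeR called 15, also among the 25, beside 25.6% of all genes. In that fit Dync1h1, Dynll2, Kif1b, Kif20b, Kif26a and Kif5a did not pass, and Dctn5, Kif18b, Kif20a and Kif23 fell under the minimum of 10 cDNAs and were not tested. Of the 25, 7 passed in every one of the 12 alternatives in which they could be fitted, namely Kif26b, Kif1a, Kif16b, Dync1i1, Dync1i2, Kif11 and Kif15.

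**Figure D5:**
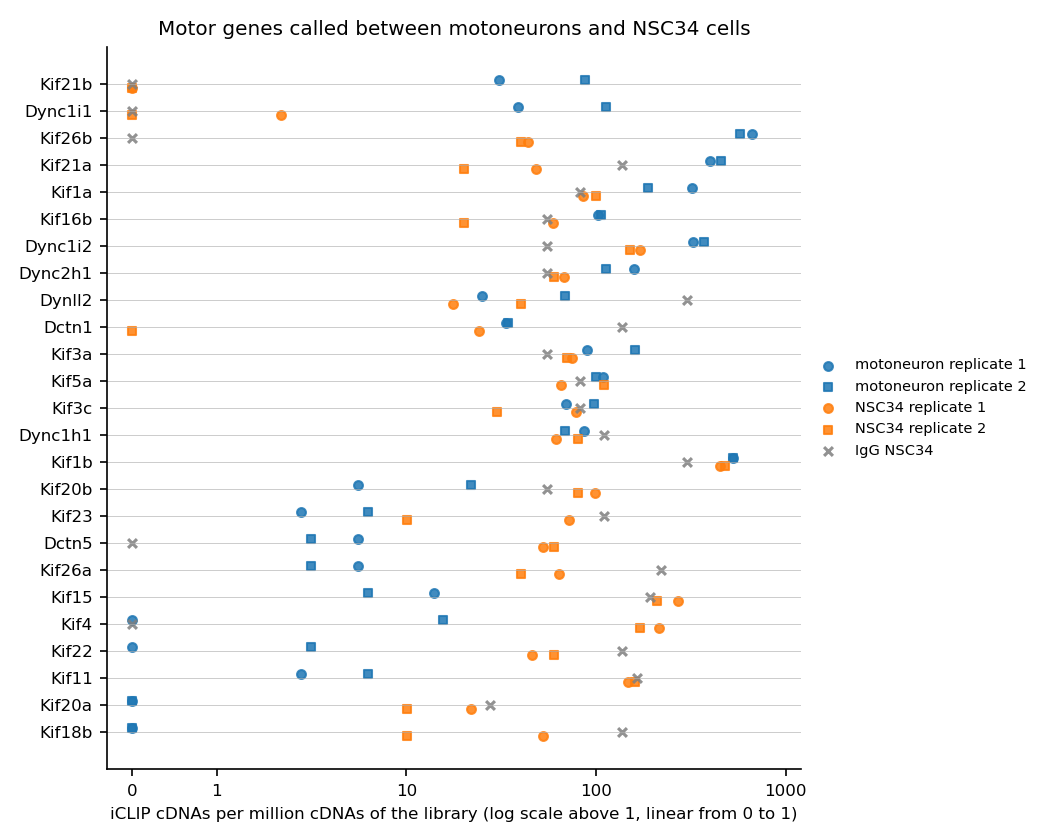
CPM of each library for the 25 motor genes called between motoneurons and NSC34 cells with TMM scaling, ordered by log2 ratio; the axis is logarithmic above 1 and linear from 0 to 1. Blue points (motoneurons) lie right of orange points (NSC34) by more than 10 times for Kif26b and left of them for the mitotic kinesins, and the grey crosses (IgG) lie near the NSC34 points for many genes.

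With edgeR 1 of 46 motors was called between NSC34 hnRNP R libraries and IgG, beside 0.533% of all genes (0.334% lower), and it was lower: Dynll2 had 8 and 4 cDNAs with hnRNP R antibody and 11 in the much smaller IgG library (log2 ratio −3.46 ± 0.75, edgeR adjusted p = 0.00749). DESeq2 called none, and neither did edgeR without NSC34 replicate 1 or replicate 2. Kif4, with no IgG cDNA against 98 and 17, had an edgeR adjusted p of 0.0701. The IgG library is a single one of 36280 cDNAs, assumed in the fit to vary like the others. No IgG library of motoneurons was analysed here.

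Between nuclear and cytoplasmic libraries, in edgeR's paired fit, 0 of 31 fitted motors and 0 of 5177 genes (0%) passed, and 1 motor, Kif20b, and 27 genes had an unadjusted p under 0.05. DESeq2 called 0 motors and 3 genes. The share on motor genes was larger in the nuclear library of each pair: 0.579% (0.531 to 0.631) against 0.412% (0.384 to 0.441) in motoneurons, 0.471% (0.412 to 0.536) against 0.168% (0.0617 to 0.366) in NSC34 cells with antibody 1, and 0.587% (0.427 to 0.788) against 0.0715% (0.00866 to 0.258) with antibody 2. The NSC34 cytoplasmic libraries held only 3569 and 2796 cDNAs, with 6 and 2 on motor genes. In motoneurons introns held 93.6% (91.1 to 95.5) of nuclear and 83.3% (80.5 to 85.8) of cytoplasmic motor cDNAs, against 94.3% and 90.7% over all genes. Kif1a had 59 cDNAs in the nuclear and 37 in the cytoplasmic motoneuron library, Kif5c 40 and 81, Kif1b 61 and 82, and Kif26b 76 and 121, of 91302 and 194816 in all.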

How the data were processed

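The RNA values were deposited by the authors as 4 tables of 37926 records with 1 FPKM per group, a log2 ratio, a p-value and a q-value per record, made with Cufflinks 2.2.1 on GRCm38 per the submitters' processing notes. The authors' test statistic, a score, and its status mark the records they tested. Tables were scaled separately: the same control axons differ by a factor of 0.973 between tables and the control cell bodies by 1.09. Calls rest on the authors' q below 0.05. Medians used records at 1 FPKM or more in either group and 0.1 FPKM added. For iCLIP the deposited tables hold the count of cDNAs of every gene and gene part, on mm9 with Ensembl 59, per the file headers. Deposited densities, a signal of cDNAs per base, gave the part lengths, where a part had a cDNA in any library. Another 1188 iCLIP value columns were not used. The header of the IgG file names hnRNP R and carries library number 14, as does NSC34 replicate 2; only its title marks it as IgG.

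Counts were tested in edgeR 4.0.16 (R 4.3.3; TMM, genes with 10 or more cDNAs over the fit, quasi-likelihood, Benjamini-Hochberg 0.05, SE from the F statistic), with DESeq2 1.42.0 as an alternative, and the fits were tested on simulated counts. One fit of 5 whole-cell libraries gave the contrast of motoneurons with NSC34 cells and that of NSC34 hnRNP R with IgG, the lone IgG library being assumed to vary like the others; another paired nuclear and cytoplasmic libraries of the same cells and antibody. Replicates differed by more than sampling noise (chi-square per degree of freedom 3.08 and 2.28). Motoneuron and NSC34 replicate numbers do not pair the libraries. Every motor gene that was tested, called, at 5 FPKM or more in a control group, or among the 15 with most motoneuron cDNAs is named; of other pathway genes, those called and the most abundant of each list. Members and lists were chosen with earlier results of these data known. Genes named beyond these, and the scaling by totals, were chosen after seeing values.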

Additional observations from a re-analysis of the deposited data

How the results depend on the processing

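No paired analysis was possible because the RNA tables hold 1 value per group; for iCLIP, a replicate block (without the IgG library) gave 24 motors in motoneurons against NSC34 cells (3211 of all genes) against 25, the correlation of deviations of same-numbered libraries being 0.0086. Counts of RNA calls at q under 0.10 and at an unadjusted p under 0.05 were 1 and 2 in axons labelled 7SK knockdown (0 at q under 0.05), 1 and 3 in hnRNP R knockdown cell bodies (0), and 3 at the unadjusted p in 7SK knockdown cell bodies (1); hnRNP R knockdown axons stayed at 0. With 5 FPKM or more in either group the median log2 ratio became 0.20 in axons labelled 7SK knockdown and −0.026 in 7SK knockdown cell bodies, and the axon to cell body median −0.98; that median was 0.013 when centred on all records and −0.41 with the 7SK tables. The other 21 medians moved by less than 0.1 (log2). Motoneurons against NSC34 cells gave 11 calls with DESeq2 and 9 with coding sequence and UTR cDNAs only (both fewer), and 15 to 24 leaving out a library; no called gene changed sign. NSC34 cells against IgG gave 2 calls with DESeq2 size factors in edgeR and without a filter, 0 with DESeq2 and with intron cDNAs only, and 0 to 2 leaving out a library. Nuclear against cytoplasmic stayed at 0, also with no replicate block. The cause of these differences was not tested, except that coding and UTR cDNAs are fewer. The intron, coding and total-cDNA alternatives were chosen after seeing the data. Member shares stayed within their intervals without the gene with most cDNAs. The 2 NSC34 cytoplasmic libraries are the shallowest, and a count of 0 there allows up to 841 and 1073 CPM, beside 82.7 CPM with IgG.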
